A study of Mus musculus with 16 samples.

Results

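The subject is the effect of an Asxl1 transgene alone on gene expression in mouse bone marrow stem and progenitor cells. The libraries were chosen by their labels: 4 Asxl1Tg and 4 WT libraries, 8 of the 16 in the series, with all 22749 genes that passed a filter on low counts. Asxl1Tg mice carry the genotype Asxl1Y588XTg, a transgene whose name gives a stop codon in Asxl1, and WT mice are wild type. Each library is RNA from the LSK cells of 1 C57BL/6 mouse, enriched with beads: bone marrow cells without lineage markers that carry Sca-1 and c-Kit. The labels name no treatment of the mice, and neither group carries the Srsf2 mutation of the other 8 libraries. Those 8, from 4 Srsf2P95H mice (a P95H mutation of Srsf2, which encodes a splicing factor, on 1 copy) and 4 DM mice (the same mutation together with the Asxl1 transgene), give a second comparison of the transgene that shares no library with the first. The design text gives 3 DM mice, while the labels hold 4, and all 4 were used. In the published line of this name the transgene is driven by the Vav1 promoter, which is active in blood cells. The labels give neither that driver nor the age or sex of the mice, nor how the Srsf2 mutation was induced. Whether age or a batch differed between the genotypes could therefore not be checked.

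Asxl1 is a chromatin protein that binds the deubiquitinase Bap1, which removes ubiquitin from histone H2A, and it also acts with Polycomb complexes, which keep developmental genes silent. Truncating mutations of human ASXL1 are frequent in myeloid neoplasms and in clonal haematopoiesis, and they leave a shortened protein that can still bind Bap1. LSK cells hold the blood stem cells and the early multipotent progenitors, some of which are already primed towards lymphoid or myeloid fates.

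Total counts were 97.8 ± 18.7 M in WT and 93.6 ± 7.02 M in Asxl1Tg (SD over 4 libraries). By a two-sided exact permutation test p was 0.8, where 0.0286 is the smallest that 4 against 4 allow. Levels are given as CPM (a gene's counts scaled to a common library size, after TMM correction for composition). Of the markers that define LSK cells, Kit was at 943 ± 58.9 CPM in WT and 822 ± 129 CPM in Asxl1Tg. Ly6a (Sca-1) was at 30.4 ± 4.89 and 36.5 ± 12.2 CPM. Cd34, which is not part of that definition, was at 836 ± 104 and 802 ± 20.995 CPM. None of the 7 genes in the list of LSK markers was called in the main fit. Flt3, 1 of the 7, had the smallest adjusted p by edgeR's quasi-likelihood test (0.0625). It was called lower by DESeq2, with a replicate block or an Xist covariate, and without WT 1 or Asxl1Tg 2. Without Asxl1Tg 2, Ptprc was called lower as well. WT 4 stood farthest from its group (root mean square log2 distance 0.371 to the mean of the other 3, against 0.224 to 0.337 for the other 7 libraries). Its eosinophil genes summed to 1669 CPM, against 44.4 to 323 CPM in the other WT libraries and 51.7 to 321 CPM in Asxl1Tg. B lineage genes summed to 1596 CPM in WT 4 and 2220 CPM in Asxl1Tg 3, and to 213 to 544 CPM in the other 6. WT 4 also had the lowest sum of immediate-early genes (970.0 CPM, against 2488 to 13388 CPM in the others). Xist, transcribed from the inactive X chromosome, passed 100 CPM in WT 1 and Asxl1Tg 3 alone.

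Asxl1 itself was measured at 225, 227, 213 and 213 CPM in WT and at 218, 227, 233 and 235 CPM in Asxl1Tg. The groups overlapped, and the log2 fold change of Asxl1Tg against WT was 0.05 (SE 0.06, edgeR quasi-likelihood test, adjusted p = 0.636). The transgene was thus not visible in the total Asxl1 count. Neither the species nor the length of the transgene is known from the labels, so this count does not check them.

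Of the 22749 genes, 428 were called at an adjusted p under 0.05 by edgeR's quasi-likelihood test (1.88% of all genes tested). Of these, 255 were higher in Asxl1Tg (1.12%) and 173 were lower (0.76%). The genes that rose started from lower levels than those that fell. Called genes that rose had a median of 3.92 CPM in WT, and the median of their log2 fold changes was 1.11. Of these, 72 of 255 were under 1 CPM in WT (28.2%, against 35.8% of all genes tested). For called genes that fell, the median WT level was 30.7 CPM, with 14 of 173 under 1 CPM (8.09%), and the median log2 fold change -0.68. Changes past 4-fold numbered 42 among the risen and 20 among the fallen genes. Over all genes tested, the median WT level was 3.71 CPM and the median log2 fold change -0.04. Protein-coding genes made up 401 of the 428 (14424 of the 22749 tested), and the 4 WT and 4 Asxl1Tg libraries did not overlap for 383. Among all genes tested, all 4 Asxl1Tg libraries were above all 4 WT libraries for 3.7% and below them for 5.28%. The count of calls moved with the libraries and the test used: it was 1872 with DESeq2, 73 on the 8 compared libraries alone, 147 without WT 4 and 2330 without Asxl1Tg 2, and further values are given in the closing section.

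**Figure D1:**
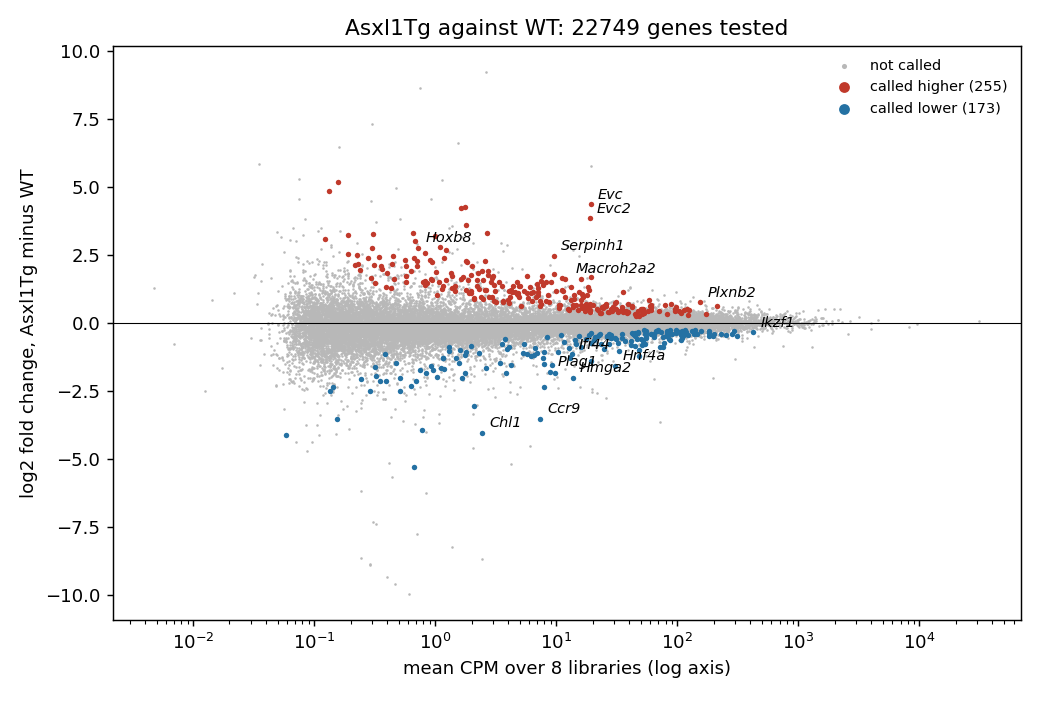
Mean level of each gene over the 8 libraries (horizontal, CPM, log axis) against its log2 fold change in Asxl1Tg minus WT (vertical). Red points are the 255 genes called higher, blue points the 173 called lower and grey points the genes not called; the largest changes in both directions lie at low to middle levels, and the most abundant called genes change little.

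Evc had the largest rise of the genes named by size of change, and its neighbour on chromosome 5, Evc2, rose with it. Both encode membrane proteins at the base of the primary cilium that pass the Hedgehog signal from Smo to the Gli transcription factors. Evc (chr5:37289098-37336894, minus strand) stood at 3.07, 1.22, 1.36 and 1.40 CPM in the 4 WT libraries and at 31.6, 29.9, 41.9 and 43.4 CPM in the Asxl1Tg libraries. Every Asxl1Tg library was thus far above every WT library, and WT 1 was the highest of the WT. The mean rose 20.8-fold (log2 fold change 4.38, SE 0.31, edgeR adjusted p = 4.36e-06). Evc2 (chr5:37338499-37425055, plus strand) stood at 4.96, 1.38, 1.90 and 1.57 CPM in WT and at 32.9, 28.8, 39.3 and 40.7 CPM in Asxl1Tg. No overlap was required of every gene named by size of change or by abundance. Evc2 met it too, with WT 1 again the highest of the WT. Evc2 rose 14.5-fold (log2 fold change 3.86, SE 0.35, edgeR adjusted p = 6.51e-05). Both calls held in all 19 alternatives run (other tests, scalings, filters, covariates and each library left out).

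The start sites of the pair lie 1597 bp apart and point away from each other, so that the stretch between them holds both promoters. The 250 bases before each start are shown because both genes rose together, with each CG dinucleotide, the site of DNA methylation, in capitals (RefSeq, GRCm38.p6, 5′ to 3′ on the strand of the gene). Each window holds 11 CG dinucleotides, against a median of 6 over all windows of this length, of which 64.4% hold fewer than 11.
Evc, chr5:37336882-37337131, minus strand: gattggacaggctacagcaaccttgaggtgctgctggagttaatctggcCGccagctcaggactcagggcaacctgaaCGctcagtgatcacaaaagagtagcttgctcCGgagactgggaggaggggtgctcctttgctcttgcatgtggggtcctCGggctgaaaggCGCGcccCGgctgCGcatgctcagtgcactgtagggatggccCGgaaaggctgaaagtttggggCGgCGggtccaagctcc
Evc2, chr5:37338228-37338477, plus strand: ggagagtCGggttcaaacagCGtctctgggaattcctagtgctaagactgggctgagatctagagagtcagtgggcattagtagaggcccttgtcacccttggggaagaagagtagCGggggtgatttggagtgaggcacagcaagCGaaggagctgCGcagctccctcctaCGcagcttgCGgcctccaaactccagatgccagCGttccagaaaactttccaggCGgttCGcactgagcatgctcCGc
No methylation or chromatin data were analysed here, so the letters describe the promoters only.

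Most of the other genes around the pair were not called. Stx18, 702 kb from Evc, was at 20.03 ± 2.26 CPM in WT and 21.3 ± 1.01 CPM in Asxl1Tg (log2 fold change 0.09, edgeR adjusted p = 0.642). Gm1043, on the other side, was at 0.958 ± 0.417 and 0.359 ± 0.154 CPM (edgeR adjusted p = 0.119). Gm26647, Gm25551 and Gm42858 were not called either. Gm15732, a pseudogene inside Evc2 on the opposite strand, was called higher (edgeR adjusted p = 0.00567) at a mean of 0.310 CPM in Asxl1Tg. Because the strand setting of the counts is not given, reads of Evc2 and Gm15732 cannot be told apart. Within 1000 kb on either side, 23 genes were tested, the pair included, and the remaining called gene was Nsg1, chosen after its values were seen, 823 kb away, at 3.54 CPM in WT and 11.8 CPM in Asxl1Tg (edgeR adjusted p = 0.00277).

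The list of cilium and Hedgehog genes held 5 called higher (1.12% of all genes were) and 1 called lower (0.76% of all genes) among 33 tested, with a median log2 fold change of -0.06, near the -0.04 of all genes. All gene lists here were written with earlier results of these data known. A share of calls above that of all genes is therefore no test of a list. The members that moved were few and of different roles. Dzip1l, a protein of the ciliary transition zone, was at 0.393, 0.0240, 0.0862 and 0.163 CPM in WT and 2.85, 3.26, 4.02 and 2.29 CPM in Asxl1Tg. It rose 18.7-fold with no overlap (SE 0.51 on the log2 scale, edgeR adjusted p = 0.00078). Smo, the membrane protein that transduces the Hedgehog signal, rose 1.30-fold from 93.6 ± 6.84 to 122 ± 11.1 CPM (edgeR adjusted p = 0.0189). Gli2, a transcription factor of the pathway, was low throughout and rose from 0.0889 ± 0.0416 to 0.467 ± 0.153 CPM (edgeR adjusted p = 0.0244). Dzip1, the paralogue of Dzip1l, went the other way, from 8.67 ± 1.92 to 3.73 ± 1.73 CPM (edgeR adjusted p = 0.0486). Gli3 was at 1 CPM in WT and 2.72 CPM in Asxl1Tg and was not called (edgeR adjusted p = 0.0846). The calls of Smo, Gli2 and Dzip1 were each lost without WT 4 and in 4 or more further alternatives, in which the adjusted p reached 0.0899, 0.0888 and 0.168.

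**Figure D2:**
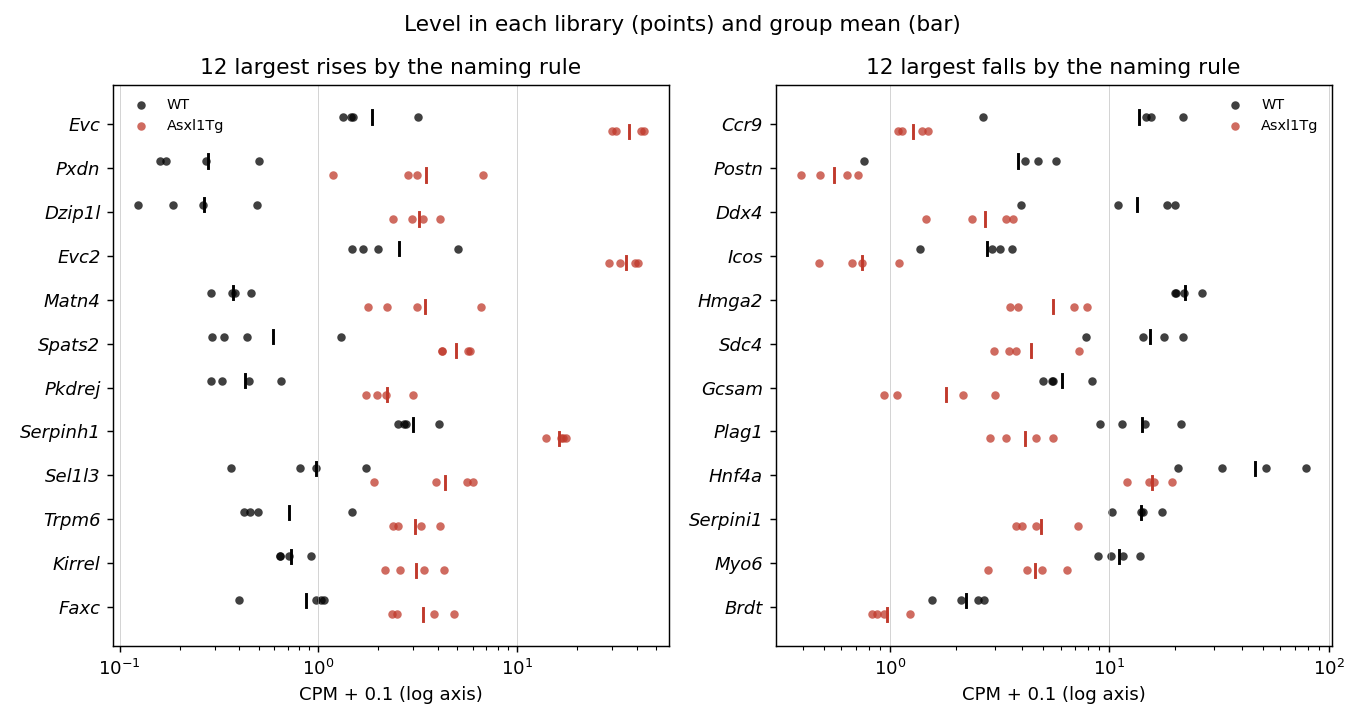
Level of the 12 genes with the largest rise and the 12 with the largest fall by the naming rule, in CPM + 0.1 on a log axis. Points are libraries (black WT, red Asxl1Tg) and bars are group means. The naming rule took only genes in which no Asxl1Tg library overlaps a WT library. The single low WT point of Ccr9 and Postn is WT 1.

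Further genes with large rises belong to the matrix that surrounds cells and to the machinery that folds collagen. Pxdn (peroxidasin, which cross-links collagen IV) was at 0.404, 0.0600, 0.0705 and 0.172 CPM in WT and 3.04, 2.73, 6.63 and 1.08 CPM in Asxl1Tg. It rose 19.2-fold (SE 0.71 on the log2 scale, edgeR adjusted p = 0.00824), with the Asxl1Tg libraries spread over a wide range. Matn4 (matrilin 4, a matrix protein) was at 0.266, 0.360, 0.188 and 0.281 CPM and 2.10, 3.05, 6.52 and 1.67 CPM, a 12.2-fold rise (edgeR adjusted p = 0.000274). Among matrix and adhesion genes, 2 of 30 tested were called higher (these 2; 1.12% of all genes were) and 4 lower (0.76% of all genes), with a median of 0.28. The 4 that fell were Chl1, Postn, Sdc4 and Itga2. This list, too, was written with earlier results of these data known, so its share of calls is no test. Serpinh1, the collagen chaperone Hsp47 (chr7:99345376-99353239), was at 2.60, 2.41, 3.94 and 2.66 CPM in WT and 13.9, 16.5, 17.5 and 16.9 CPM in Asxl1Tg. WT 3 stood apart from the other WT libraries. Serpinh1 rose 5.58-fold (SE 0.20 on the log2 scale, edgeR adjusted p = 4.36e-06). Of 30 collagen and collagen-folding genes tested, 4 were called higher (1.12% of all genes were) and none lower, with a median of 0.28 on the log2 scale. For 7 of the 30 all Asxl1Tg libraries were above all WT libraries (3.7% of all genes). The called genes beside Serpinh1 were Fkbp10, a prolyl isomerase that acts on collagen (1.15 ± 0.413 and 4.34 ± 0.654 CPM), Col18a1, a basement membrane collagen (4.302 ± 1.72 and 14.95 ± 2.55 CPM), and Bmp1, a protease that trims procollagen (18.5 ± 2.40 and 25.7 ± 3.06 CPM). The calls of Matn4, Serpinh1, Fkbp10 and Col18a1 held in all 19 alternatives, that of Pxdn was lost on the 8 compared libraries alone (edgeR adjusted p = 0.0528), and that of Bmp1 was lost in 8, among them without WT 1, WT 2, WT 4, Asxl1Tg 3 or Asxl1Tg 4 (up to 0.147). Fkbp10 overlaps Nt5c3b and Col18a1 overlaps Slc19a1, whose reads cannot be told apart there.

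The 12 largest named rises also held genes of the testis, of ion transport and of cell contacts. Spats2 rose 9.97-fold from 0.490 ± 0.477 to 4.86 ± 0.893 CPM, and WT 1, at 1.20 CPM, was again the highest WT library. Pkdrej, a polycystin-family receptor of sperm, rose 6.52-fold from 0.328 ± 0.164 CPM. Trpm6, a magnesium channel, rose 4.87-fold from 0.612 ± 0.509 CPM, and Kirrel, a nephrin-like adhesion protein, 4.78-fold from 0.627 ± 0.129 CPM. Sel1l3 and Faxc rose 4.89-fold and 4.25-fold. The edgeR adjusted p of these 6 genes ran from 0.00113 to 0.0225. Spats2 and Kirrel kept their calls in all 19 alternatives. Pkdrej lost its call without WT 3 or WT 4 (up to 0.0636), Sel1l3 without WT 3, WT 4, Asxl1Tg 3 or Asxl1Tg 4 (up to 0.113), Faxc without Asxl1Tg 4 (up to 0.0615), and Trpm6 on the 8 compared libraries alone (0.0843). In 7 of the 12 genes with the largest rises, WT 1 was the highest WT library.

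At the abundant end the rises were small. Among the most abundant risen genes, Plxnb2, a semaphorin receptor, went from 115 ± 9.32 to 195 ± 42.3 CPM, a 1.70-fold rise (edgeR adjusted p = 0.0292). Hk2 (hexokinase 2, the entry step of glycolysis) rose 1.39-fold, Smo 1.30-fold, Ctsd (the lysosomal protease cathepsin D) 1.26-fold and Svil (the actin-binding supervillin) 1.22-fold. No overlap was a condition for naming these genes, and their calls rest on small differences. Each of these 5 was lost in 5 to 9 of the 19 alternatives, including without WT 2 for all 5 and without WT 4 for all but Svil, with an adjusted p of up to 0.168 (Ctsd).

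Ccr9 had the largest fall among the named genes whose groups did not overlap. It encodes the receptor for the chemokine Ccl25, which guides lymphoid progenitors to the thymus. Ccr9 (chr9:123678439-123784330) was at 2.56, 14.6, 15.4 and 21.4 CPM in WT and at 1.04, 1.39, 0.985 and 1.29 CPM in Asxl1Tg. WT 1 was close to the Asxl1Tg libraries, and the other 3 WT libraries were far above them. The mean fell 11.5-fold (log2 fold change -3.52, SE 0.50, edgeR adjusted p = 0.00277). In bulk RNA, fewer cells of a type and less RNA per cell cannot be told apart. Lztfl1, which overlaps Ccr9 on the opposite strand, was called lower as well, from 24.3 ± 4.50 to 14.6 ± 1.64 CPM (edgeR adjusted p = 0.0082), and without a stated strand setting their reads cannot be told apart where they overlap. Postn (periostin, a matrix protein) was at 0.658, 4.01, 4.63 and 5.64 CPM and 0.293, 0.613, 0.379 and 0.535 CPM, an 8.19-fold fall with WT 1 again lowest (edgeR adjusted p = 0.00617). Chl1, a neural adhesion protein named as a list member, was at 0.323, 3.60, 4.92 and 9.70 CPM and 0.0523, 0.361, 0.292 and 0.418 CPM, and here WT 1 lay inside the Asxl1Tg range (edgeR adjusted p = 0.0166). The calls of Ccr9 and Postn were lost on the 8 compared libraries alone (edgeR adjusted p = 0.0515 and 0.0711), and that of Chl1 without Asxl1Tg 4 and in 3 other alternatives (up to 0.136).

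Hmga2, Plag1 and Serpini1 fell with calls that held in all 19 alternatives. Hmga2 (chr10:120361275-120476469), whose protein bends DNA and is abundant in fetal stem cells, was at 21.9, 20.0, 26.4 and 19.8 CPM in WT and at 3.74, 7.78, 6.83 and 3.43 CPM in Asxl1Tg. The lowest WT library was well above the highest Asxl1Tg library. The mean fell 4.05-fold (SE 0.27 on the log2 scale, edgeR adjusted p = 0.00194). The antisense RNA 9230105E05Rik, inside Hmga2, fell too, from 1.67 ± 0.365 to 0.419 ± 0.0766 CPM, and its reads cannot be told apart from those of Hmga2. Plag1, a zinc-finger factor that raises Igf2 in development, was at 8.95, 11.3, 14.4 and 21.1 CPM and 2.76, 4.53, 5.44 and 3.28 CPM, a 3.48-fold fall (edgeR adjusted p = 0.01). Hmga2 and Plag1 were the 2 called among 18 fetal stem-cell regulators and let-7 targets, whose median was -0.08 (0.76% of all genes were called lower). Serpini1 (neuroserpin, a protease inhibitor) was at 10.1, 13.9, 14.1 and 17.3 CPM and 3.89, 7.08, 4.52 and 3.65 CPM, a 2.89-fold fall (edgeR adjusted p = 0.00271).

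The other large falls were the germline RNA helicase Ddx4 (5.05-fold, 13.2 ± 7.34 to 2.61 ± 1.001 CPM), the T-cell costimulator Icos (4.11-fold), the heparan sulfate proteoglycan Sdc4 (3.56-fold), the B-cell signalling gene Gcsam (3.53-fold), the nuclear receptor Hnf4a (2.96-fold), the myosin Myo6 (2.45-fold) and the testis bromodomain gene Brdt (2.43-fold). Hnf4a, a factor of liver and gut, was at 20.4, 32.5, 78.8 and 51.7 CPM in WT and 11.9, 15.9, 14.98 and 19.1 CPM in Asxl1Tg, so that WT 1 stood just above the highest Asxl1Tg library. The edgeR adjusted p of these 7 ran from 0.0116 to 0.0452. Each of the 7 lost its call on the 8 compared libraries alone, and all but Myo6 also did without WT 4 and without Asxl1Tg 4 (adjusted p up to 0.15 for Hnf4a). In 8 of the 12 largest falls WT 4, the library rich in eosinophil and B lineage transcripts, was the highest WT library, and in 11 of the 12, all but Hmga2, WT 1 was the lowest. The part of those transcripts in these falls was not tested. In the fit with a marker covariate Ddx4, Icos, Sdc4, Hnf4a and Brdt lost their calls, but Icos is itself 1 of the markers. The calls over all genes also went from 428 to 135 in that fit, so these losses are not particular to the 5 genes.

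The 6 most abundant fallen genes were regulators with small falls. Ikzf1 (Ikaros, a transcription factor needed for lymphoid development) was at 446, 497, 501 and 459 CPM in WT and 369, 387, 382 and 372 CPM in Asxl1Tg. The fall was 1.26-fold (edgeR adjusted p = 0.0228), and no overlap was a condition for naming the gene by abundance. Mef2c, a transcription factor of lymphoid-primed progenitors, fell 1.36-fold, Dock11 and Paip2 each fell 1.33-fold, Erbin 1.31-fold and Pik3r1, the regulatory subunit of PI3 kinase, 1.21-fold. Each was lost in 7 to 12 of the 19 alternatives, among them without WT 2, WT 3, Asxl1Tg 1, Asxl1Tg 3 or Asxl1Tg 4 (adjusted p up to 0.174, Erbin), and all but Ikzf1 also without WT 4.

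Lymphoid-primed progenitor genes leaned lower in Asxl1Tg: 18 of 22 tested had a negative log2 fold change, the median was -0.87, and 3 were called lower (Ccr9, Ikzf1 and the recombinase gene Rag2) against 0.76% of all genes. Rag2 was at 3.21, 6.24, 5.77 and 10.1 CPM in WT and 1.46, 3.87, 1.89 and 1.38 CPM in Asxl1Tg, with overlap. Members just outside the threshold were Flt3, the cytokine receptor of early progenitors (558 ± 169 and 305 ± 74.5 CPM, edgeR adjusted p = 0.0625), and Dntt, the terminal transferase of lymphoid precursors (431 ± 89.2 and 172 ± 75.05 CPM, edgeR adjusted p = 0.0656). The libraries were uneven. On the scale of log2 of CPM + 1 over the WT mean, the list's median was -0.74 in WT 1, 0.06 in WT 2, -0.02 in WT 3 and 0.29 in WT 4, and -0.89, -0.40, -1.09 and -0.83 in Asxl1Tg 1 to 4. WT 1 was therefore within the Asxl1Tg range. On the 8 compared libraries alone none was called, and without WT 2, Asxl1Tg 1, Asxl1Tg 3 or Asxl1Tg 4 only Ccr9 was. Without WT 4 the median was -0.49 with 2 called, with the marker covariate it was -0.43 with 1 called, and without WT 1 it was -1.10 with 10 called. Over all genes these fits called 147, 135 and 951. The list shares Vpreb1 with the markers of that covariate.

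Lists of other blood cells leaned either way, with few calls (0.76% of all genes were called lower). Of 19 T and natural killer cell genes, 17 were negative (median -0.83) and 1, Icos, was called. Their summed level was 147 to 185 CPM in WT and 139 to 163 CPM in Asxl1Tg. Of 12 dendritic cell genes, Tcf4 and Runx2 were called lower, both transcription factors (200.2 ± 15.95 and 168 ± 15.9 CPM in WT, 163 ± 14.4 and 126 ± 17.1 CPM in Asxl1Tg). H2-Ob, a modulator of MHC class II loading, fell 2.34-fold and was the 1 called of 14 MHC class II genes (median -0.09). None of 14 B lineage genes (median -1.29), 10 eosinophil genes (-2.04) or 12 mast cell and basophil genes (-0.63) was called, and without WT 4 the median of B lineage genes was 0.07 and that of eosinophil genes -0.34. The calls of Rag2, Icos, Tcf4, Runx2 and H2-Ob were each lost without WT 2, WT 3, WT 4, Asxl1Tg 1, Asxl1Tg 3 or Asxl1Tg 4 and with the marker covariate (adjusted p up to 0.166, Tcf4). Icos, Tcf4 and Runx2 are themselves markers in that covariate. Monocyte and macrophage genes (median 0.75, 14 of 16 positive) and granulocyte-monocyte progenitor genes (0.39, 14 of 17 positive) leaned upwards. Their summed levels overlapped between the groups. The monocyte sums were 66.8 to 421 CPM in WT and 272 to 509 CPM in Asxl1Tg. For the progenitor genes they were 2757 to 6691 and 4000 to 8452 CPM. Without WT 3 the 2 medians were 0.41 and 0.18. Mature neutrophil genes had a median of 0.43 and erythroid and megakaryocyte genes one of 0.06, with none called in these 4 lists.

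Stem-cell genes showed 2 called higher of 25 tested (median 0.21), where 1.12% of all genes were called higher. Thy1, a surface protein of stem cells in many mouse strains, was at 9.58, 8.22, 14.3 and 9.22 CPM in WT and 29.1, 25.8, 17.7 and 31.8 CPM in Asxl1Tg. It rose 2.53-fold with no overlap (SE 0.23 on the log2 scale, edgeR adjusted p = 0.00824), and the call held in all 19 alternatives. Hoxb5, a marker of long-term stem cells, rose 1.90-fold from 1.43 ± 0.387 to 2.73 ± 0.316 CPM (edgeR adjusted p = 0.0488), and the antisense RNA Hoxb5os on the same site was called too, so their reads cannot be told apart. Hlf, a transcription factor of stem cells, leaned downwards without a call (416 ± 105 and 263 ± 56.2 CPM, edgeR adjusted p = 0.0747).

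The homeobox genes of the Hoxb cluster all leaned upwards. All 8 tested were positive (median 0.85 on the log2 scale), and 2 were called higher, against 1.12% of all genes. Hoxb8 (chr11:96281905-96285315), a low transcript in these cells, was at 0.300, 0.0480, 0.141 and 0.244 CPM in WT and 0.911, 1.40, 1.504 and 1.25 CPM in Asxl1Tg, with no overlap. It rose 6.85-fold (SE 0.45 on the log2 scale, edgeR adjusted p = 0.00512) and held its call in all 19 alternatives, while Hoxb5 lost its call in 11, among them the replicate block and each library left out except WT 1 and Asxl1Tg 2 (up to 0.13). Hoxb4, the most abundant of the cluster, was at 7.66 ± 1.71 and 7.90 ± 0.375 CPM. The Hoxa cluster did not share this lean: 6 of 9 tested were negative, the median was -0.39, and none was called, with Hoxa9 at 57.7 ± 8.22 and 43.8 ± 5.47 CPM (edgeR adjusted p = 0.0723).

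Few genes of the complexes in which Asxl1 acts were called. None of the 11 Asxl and Bap1 complex genes was called (median 0.05), with Bap1 at 121 ± 11.0 and 119 ± 4.51 CPM. Of 33 Polycomb complex genes, 1 was called higher, where 1.12% of all genes were. It was L3mbtl2, a subunit of a variant complex, at 39.8 ± 4.19 and 54.1 ± 9.51 CPM (edgeR adjusted p = 0.0486). That call was lost in 9 alternatives, with each library left out except WT 1 and Asxl1Tg 2. A histone gene outside the lists, Macroh2a2, was chosen after its values were seen. It encodes a macroH2A variant of repressed chromatin and was at 5.51, 5.04, 7.28 and 5.20 CPM in WT and 19.2, 18.05, 15.4 and 18.7 CPM in Asxl1Tg. Every Asxl1Tg library was above every WT library, and the mean rose 3.10-fold (SE 0.13 on the log2 scale, edgeR adjusted p = 4.36e-06), a call that held in all 19 alternatives. None of 33 myeloid neoplasm driver genes was called (median -0.05).

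**Figure D3:**
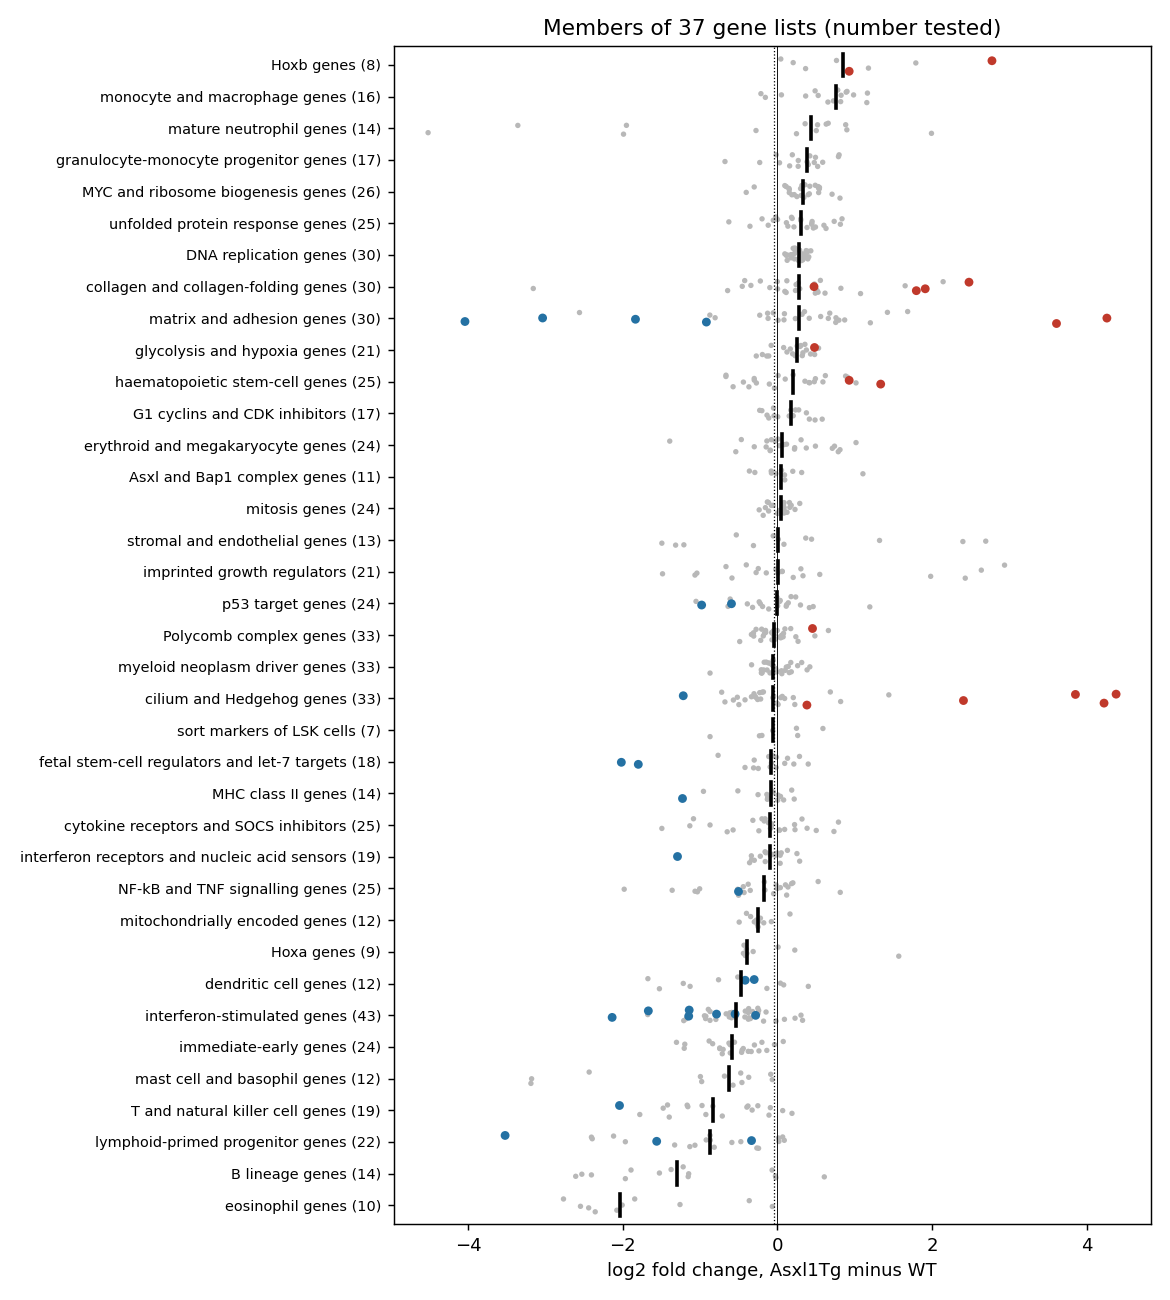
Log2 fold change in Asxl1Tg minus WT (horizontal) of every tested member of 37 gene lists (rows, number tested in brackets). Red and blue points are members called higher and lower, grey points are not called, black bars are list medians, and the dotted line is the median of all genes, -0.04; Hoxb genes have the highest median and eosinophil genes the lowest.

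Interferon-stimulated genes, which are induced by interferon through a complex that holds Irf9 and serve antiviral defence, leaned lower in Asxl1Tg. Of 43 tested, 39 had a negative log2 fold change, 7 were called lower (0.76% of all genes were), none was called higher and the median was -0.54. For 24 of the 43 the 4 Asxl1Tg libraries were all below the 4 WT libraries, which held for 5.28% of all genes. Ifi44 was at 19.2, 14.8, 21.5 and 18.7 CPM in WT and 6.19, 9.96, 8.76 and 8.64 CPM in Asxl1Tg. It fell 2.21-fold with no overlap (SE 0.17 on the log2 scale, edgeR adjusted p = 0.00277), and this call held in all 19 alternatives. Ifit1, whose protein binds viral RNA ends, was at 8.36, 6.55, 8.16 and 8.24 CPM and 3.10, 3.96, 3.92 and 3.24 CPM, a 2.20-fold fall (edgeR adjusted p = 0.0194). Irf9, the DNA-binding subunit of the interferon-induced complex, was at 55.4, 65.3, 64.5 and 75.4 CPM and 36.7, 54.6, 46.0 and 41.2 CPM, a 1.46-fold fall in which each Asxl1Tg library was below each WT library (edgeR adjusted p = 0.0302). Rtp4 fell 1.72-fold and Irgm1, an immunity-related GTPase, 1.21-fold. Ifit3 (1.70 ± 0.363 and 0.533 ± 0.171 CPM) and its near copy Ifit3b (0.639 ± 0.176 and 0.145 ± 0.0826 CPM) were low, and reads may be split between them. Irf7 was at 20.9 ± 1.61 and 10.9 ± 2.27 CPM and Oasl1 at 8.50 ± 1.02 and 4.65 ± 1.07 CPM, just outside the threshold (edgeR adjusted p = 0.0554 and 0.0523).

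The number of interferon-stimulated genes called lower ranged from 1, which was Ifi44 (without WT 3, WT 4, Asxl1Tg 1 or Asxl1Tg 4, and with the marker covariate) to 22 (DESeq2), and their median from -0.57 to -0.35 over the 19 alternatives. Over all genes DESeq2 called 1872. By library, the list's median on the log2 scale against the WT mean was 0.05, -0.13, 0.04 and 0.01 in WT 1 to 4 and -0.69, -0.34, -0.34 and -0.50 in Asxl1Tg 1 to 4. All 4 Asxl1Tg libraries were thus below all 4 WT libraries, WT 1 and WT 4 included. Of 19 interferon receptors and nucleic acid sensors, 1 was called lower (0.76% of all genes were), the RNA sensor Tlr7 (18.6 ± 5.90 and 7.56 ± 3.43 CPM, edgeR adjusted p = 0.0452). Its call was lost in 11 alternatives, with each library left out except WT 1 and Asxl1Tg 2. The median of those 19 was -0.09.

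The 250 bases before the start sites were searched for GAAA, any 2 bases and GAAA again, the core of the interferon-stimulated response element to which the Irf9 complex binds, on both strands. It was found in 978 of 32851 windows of this length (2.98%). Counted by gene, it was found in 936 of 27025 genes (3.46%) and in 17 of the 31 interferon-stimulated genes with an entry. Among the called genes with an entry, 4 of 6 held it and Ifi44 and Irf9 did not, and among those not called 13 of 25 did. The median log2 fold change was -0.37 with the motif and -0.46 without. The 4 called genes that hold it are shown with the motif in capitals (RefSeq, GRCm38.p6, 5′ to 3′ on the strand of the gene), to let the shared element be seen beside the values above. On the reverse strand the motif reads TTTC, 2 bases and TTTC.
Ifit1, chr19:34640639-34640888, plus strand: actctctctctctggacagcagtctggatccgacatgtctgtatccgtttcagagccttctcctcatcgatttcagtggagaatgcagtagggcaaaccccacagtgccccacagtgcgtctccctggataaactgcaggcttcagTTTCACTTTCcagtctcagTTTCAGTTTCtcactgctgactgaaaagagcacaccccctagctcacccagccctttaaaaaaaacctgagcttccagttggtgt
Ifit3, chr19:34583279-34583528, plus strand: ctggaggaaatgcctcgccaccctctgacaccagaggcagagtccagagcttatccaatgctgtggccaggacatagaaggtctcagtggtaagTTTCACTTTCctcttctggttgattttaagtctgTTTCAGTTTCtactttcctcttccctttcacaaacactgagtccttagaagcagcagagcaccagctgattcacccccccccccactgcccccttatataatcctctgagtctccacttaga
Ifit3b, chr19:34607707-34607956, plus strand: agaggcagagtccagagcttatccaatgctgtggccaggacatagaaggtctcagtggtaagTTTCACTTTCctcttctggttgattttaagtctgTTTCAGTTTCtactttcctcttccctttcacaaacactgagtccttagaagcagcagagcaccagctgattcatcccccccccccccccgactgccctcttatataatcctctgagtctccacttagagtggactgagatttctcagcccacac
Irgm1, chr11:48871421-48871670, minus strand: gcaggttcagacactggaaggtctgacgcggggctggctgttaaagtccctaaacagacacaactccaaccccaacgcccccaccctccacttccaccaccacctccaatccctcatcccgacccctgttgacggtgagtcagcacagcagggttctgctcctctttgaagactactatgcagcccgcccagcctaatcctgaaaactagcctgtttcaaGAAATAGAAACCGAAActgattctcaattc
The first 3 windows hold the motif 2 times each, on the reverse strand, and the window of Irgm1 holds 2 overlapping copies. A match describes the letters and is no evidence of binding.

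**Figure D4:**
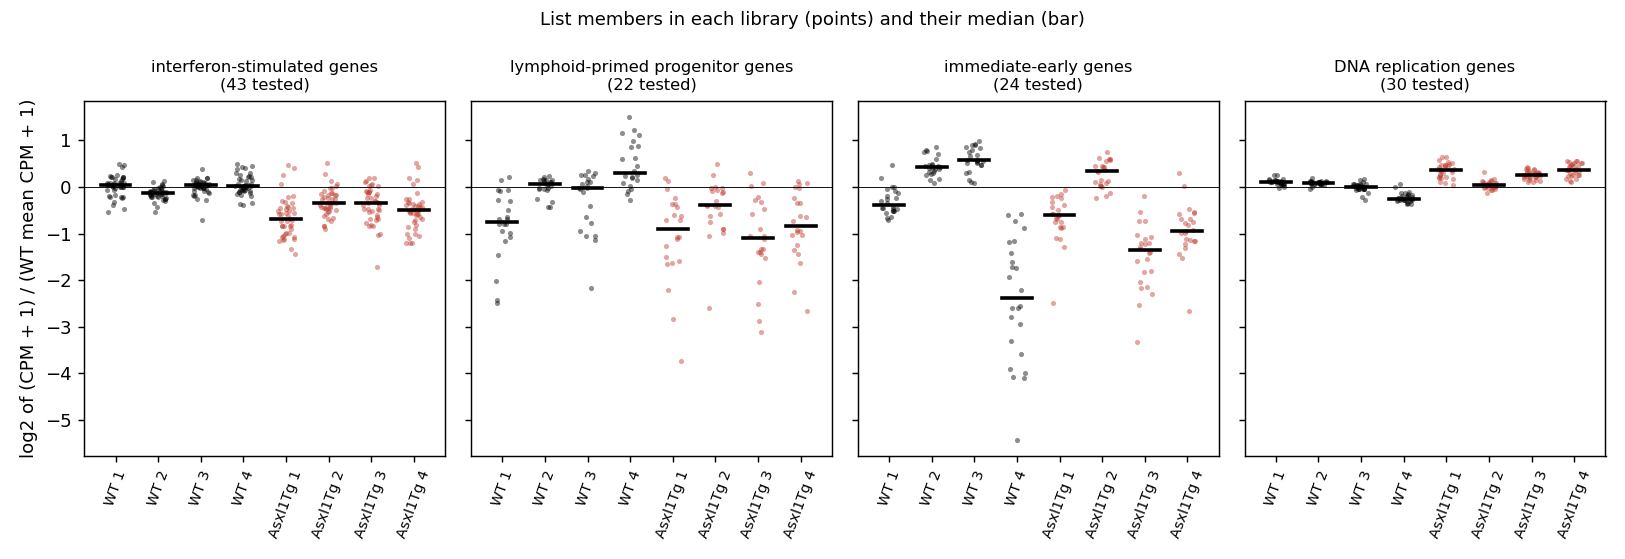
Each point is a list member in 1 library, as log2 of CPM + 1 over the WT mean + 1, for 4 gene lists (panels); bars are medians, black points WT and red points Asxl1Tg. Interferon-stimulated genes sit lower in all 4 Asxl1Tg libraries, while the medians of immediate-early genes run from -2.39 (WT 4) to 0.57 (WT 3) among the WT libraries alone.

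Growth-related lists leaned upwards by small amounts with few calls. All 30 DNA replication genes were positive (median 0.28 on the log2 scale), none was called by edgeR (5 by DESeq2), and the smallest edgeR adjusted p was 0.0767, for the helicase subunit gene Mcm2 (313 ± 39.3 and 412 ± 52.8 CPM). Their medians by library were 0.10, 0.09, 0.01 and -0.25 in WT 1 to 4 and 0.37, 0.04, 0.27 and 0.37 in Asxl1Tg 1 to 4, so Asxl1Tg 2 lay within the WT range. Without Asxl1Tg 2, 14 of the 30 were called, in a fit that called 2330 genes in all. DESeq2 called 1872 in all. Of 26 MYC and ribosome biogenesis genes, 24 were positive (median 0.33, none called), and of 24 mitosis genes 16 were (median 0.04). Hk2 was the 1 called of 21 glycolysis and hypoxia genes (median 0.26), where 1.12% of all genes were called higher. The immediate-early genes, which respond to handling of tissue, were negative in 23 of 24 (median -0.58, none called), and WT 4 was the lowest library. Of 24 p53 target genes, 2 were called lower (0.76% of all genes were), Trp53inp1 (64.6 ± 17.5 and 32.8 ± 9.60 CPM) and Sesn1 (102 ± 20.2 and 67.8 ± 11.7 CPM), with a list median of 0.00, and WT 4 was highest for both. Rel, an NF-kB subunit, was the 1 called of 25 NF-kB and TNF signalling genes (75.7 ± 6.92 and 53.1 ± 8.30 CPM). The calls of these 3 were lost without WT 4 (adjusted p up to 0.163, Sesn1, over the alternatives). Mitochondrially encoded genes took 0.864 ± 0.0607% of counts in WT and 0.721 ± 0.0901% in Asxl1Tg (SD over 4 libraries, p = 0.0571 by a two-sided exact permutation test).

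The second comparison, DM against Srsf2P95H, measures the same transgene where all 8 mice also carry the Srsf2 mutation. It called 56 of the 22749 genes (0.246%), 49 higher (0.215%) and 7 lower (0.0308%). Of the 428 genes called in Asxl1Tg against WT, 38 were among the 56, and all 38 moved the same way: 33 rose and 5 fell. Of the 255 that rose, 225 had a positive log2 fold change in the second comparison (median 0.53), and of the 173 that fell, 121 had a negative one (median -0.07). Over all genes tested the second comparison had 10813 positive and 11936 negative values and a median of -0.01. Counted anew under each alternative that gave both comparisons, the genes called in both numbered from 14 (without Srsf2P95H 4) to 144 (DESeq2), and they were 33 without WT 4.

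**Figure D5:**
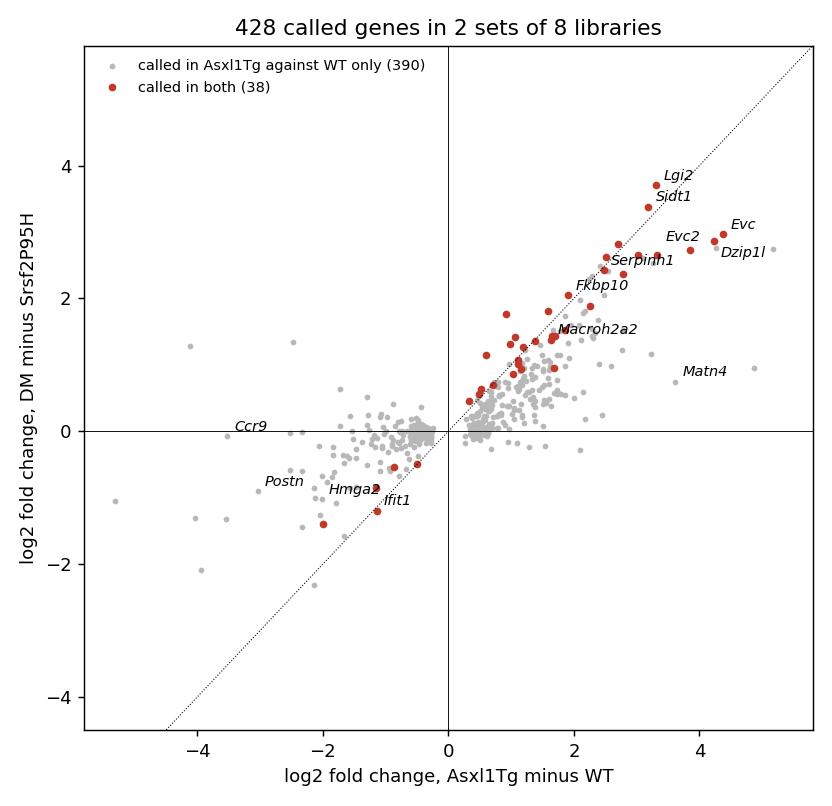
Log2 fold change of the 428 called genes in Asxl1Tg minus WT (horizontal) against DM minus Srsf2P95H (vertical), from 2 sets of 8 libraries with none in common. Red points are the 38 genes called in both and grey points the other 390; the dotted line marks equal change, and most fallen genes lie near 0 on the vertical axis.

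Genes called in both were chosen after their values were seen where the naming rule does not cover them. Of the cilium, collagen and matrix genes above, Evc, Evc2, Dzip1l, Serpinh1 and Fkbp10 were among them, while Smo, Gli2, Dzip1, Col18a1, Bmp1, Pxdn and Matn4 were not called in the second comparison (edgeR adjusted p from 0.0535 for Gli2 to 0.998 for Dzip1). Evc was at 3.71 ± 1.12 CPM in Srsf2P95H and 29.05 ± 3.96 CPM in DM (log2 fold change 2.97, edgeR adjusted p = 0.000177), and Evc2 at 3.99 ± 0.645 and 26.4 ± 4.24 CPM (2.73, 0.002). Serpinh1, at 2.83 ± 0.515 and 15.2 ± 3.79 CPM, had a log2 fold change of 2.42 there, beside 2.48 in the first comparison. Macroh2a2 had 1.38 beside 1.63, and Fkbp10 2.04 beside 1.91. P3h4, a collagen-modifying partner of the prolyl hydroxylases, was at 1.20, 0.936, 1.44 and 1.32 CPM in WT, 3.16, 2.43, 3.86 and 3.26 CPM in Asxl1Tg, and 1.13 ± 0.132 and 2.90 ± 0.528 CPM in the second pair. P3h4 and Fkbp10 are neighbours on chromosome 11 (chr11:100408456-100414836 and chr11:100415697-100424824). Sidt1, an RNA-transport protein of membranes, was at 0.231, 0.180, 0.0783 and 0.299 CPM in WT and 1.19, 1.92, 2.09 and 1.97 CPM in Asxl1Tg, and it had 3.38 in the second comparison (edgeR adjusted p = 0.000297). Lama5, a laminin chain of basement membranes, rose 3.26-fold from 9.04 ± 4.24 CPM, Rab34, a GTPase of cilium formation, 3.15-fold from 1.43 ± 0.116 CPM, and Scara3, a scavenger receptor, 8.16-fold from 0.146 ± 0.120 CPM, each called in both.

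The tyrosine kinase gene Src was also among the 38, at 9.09, 9.64, 12.1 and 12.7 CPM in WT and 15.5, 16.3, 17.6 and 16.3 CPM in Asxl1Tg, with no overlap, and at 6.999 ± 0.735 and 15.5 ± 1.62 CPM in the second pair. Its scaffold substrates Sh3pxd2a and Sh3pxd2b, which build podosomes, the actin-rich contacts of cells, rose 1.25-fold and 2.22-fold. Inppl1 (the lipid phosphatase Ship2) rose 2.03-fold, Pls3 (the actin bundler plastin 3) 1.43-fold, Pld1 (phospholipase D1) 1.40-fold and Galnt12, an enzyme of O-glycosylation, 1.64-fold. Among cilium-related proteins, Anks6 rose 2.08-fold and the kinesin Kif19a 1.97-fold. The 5 genes that fell in both were Ifi44, Ifit1, Ulk1, Chek2 and 9230105E05Rik. Ulk1, the kinase that starts autophagy, was at 86.4, 89.6, 99.6 and 96.2 CPM in WT and 46.7, 57.9, 52.9 and 46.4 CPM in Asxl1Tg, a 1.82-fold fall with no overlap (edgeR adjusted p = 0.000931). Chek2, a checkpoint kinase of the DNA damage response, was at 30.4, 32.6, 29.3 and 30.7 CPM and 20.0, 22.3, 24.7 and 20.1 CPM, a 1.41-fold fall (edgeR adjusted p = 0.00351), and its log2 fold change was -0.50 in both comparisons. Of these genes, Sh3pxd2b, Inppl1, Ulk1, Ifi44 and 9230105E05Rik held their first call in all 19 alternatives. The others lost it in 1 to 12, in which the adjusted p reached 0.134 (Sh3pxd2a). Chek2 and Galnt12 lost it on the 8 compared libraries alone, Src, Sh3pxd2a, Pls3 and Pld1 without WT 2, Asxl1Tg 3 or Asxl1Tg 4 among others, and Anks6 and Kif19a without Asxl1Tg 4 among others.

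Further genes of the first comparison were not called in the second. Ccr9 was at 1.21 ± 0.361 CPM in Srsf2P95H and 1.15 ± 0.513 CPM in DM, both near its Asxl1Tg level. Ctsd and Hk2 showed log2 fold changes of 0.03 and -0.03 in the second comparison, and Ikzf1 and Mef2c of -0.06 and 0.02. Hmga2 was at 28.4 ± 4.29 and 14.0 ± 4.40 CPM there (log2 fold change -1.02, edgeR adjusted p = 0.196), which was not called. Interferon-stimulated genes had a median of -0.41 in the second comparison, with 40 of 43 negative and 2 called lower (0.0308% of all genes were). DNA replication genes had a median of -0.01, with 21 of 30 negative, and lymphoid-primed progenitor genes one of -0.07, with 17 of 22 negative and none called. Monocyte and macrophage genes had a median of -0.39 there, with 14 of 16 negative. For granulocyte-monocyte progenitor genes it was -0.12, with 13 of 17 negative, and none was called in either list.

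The difference between the 2 transgene effects was tested directly as a contrast over the 16 libraries. No gene was called by edgeR (0.0% of all genes, smallest adjusted p = 0.0851, for Serpina3g, a member of a cluster of near-identical genes), although 2670 genes had an unadjusted p under 0.05 (11.7%), 255 of them among the 428. The 428 were selected on the first effect, which is part of this difference, and that choice raises the share among them. DESeq2 called 52 genes and limma-voom 4. The median SE of the difference was 0.332 on the log2 scale, against 0.235 for the first comparison, so that the test of the difference was the less precise of the 2. For Ccr9 the difference was -3.45 (edgeR adjusted p = 0.272), for Serpini1 -1.53 (0.28) and for Evc 1.41 (0.378). A gene called in the first comparison and not in the second is therefore not shown to differ between them.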

How the data were processed

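Bulk RNA-seq was measured in 16 LSK libraries, 4 per genotype, each from an individual mouse per the labels' protocols, on paired-end reads of 100 bp. The values are raw gene counts as deposited by the authors, and the submitters' processing notes name the mm10 build, HTSeq 0.11.2, STAR 2.7.0e and Trimmomatic 0.38. Which annotation release and which strand setting were used is not given in the sources used here. The columns named AS1 were read as the ASXL1 samples, since no other label fits. Genes were kept by edgeR's filterByExpr (minimum count 10; 22749 genes), scaled by TMM and fitted on all 16 libraries with edgeR 4.0.16 (robust quasi-likelihood, R 4.3.3), so that the groups share 1 estimate of spread. A gene was called at a Benjamini-Hochberg adjusted p under 0.05 over all genes, and SEs are the absolute log2 fold change over the square root of F. DESeq2 1.42.0, limma-voom (limma 3.58.1), other scalings, filters, covariates and left-out libraries were alternatives, and the script was tested on simulated data. The mature cell marker covariate is the mean log2 level of B, T, eosinophil, mast and dendritic cell markers. Coordinates are GENCODE M21 (GRCm38), with 53186 of 55291 symbols matched to 1 gene, and promoter windows are RefSeq's (GRCm38.p6). Same-numbered libraries did not pair, and no 2 libraries of a group differed by as little as sampling noise. Each edgeR p-value sets a change against the spread between mice of a group, estimated over all 16 libraries with information shared across genes. The members and the 37 gene lists were chosen with earlier results of these data known. Named genes are Asxl1, then, among called genes with no overlap between the groups, at least 2 CPM in the higher group and no clone name, the 12 largest rises and falls and the 6 most abundant each way, then every called list member and the 3 genes on either side of Evc and Evc2; genes called in both comparisons, Macroh2a2, Nsg1 and Lztfl1 were chosen after their values were seen. At least 1 gene that this rule names is not reported here.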

Additional observations from a re-analysis of the deposited data

Results flagged for a closer look

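Of 144 groups of 4 libraries checked, 10 held a library far from the other 3, where chance gives about 1 in 20. WT 1 was high for Evc (3.07 CPM), Evc2 (4.96 CPM), Spats2 (1.20 CPM) and Trpm6 (1.37 CPM), each still below every Asxl1Tg library. WT 3 was high for Serpinh1 (3.94 CPM), and WT 2 was low for Faxc (0.300 CPM) and for Ifit1 (6.55 CPM). Asxl1Tg 2 was high for Runx2 (151.5 CPM), and Asxl1Tg 1 was low for Rtp4 (9.99 CPM). B lineage genes summed to 2220 CPM in Asxl1Tg 3.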

How the results depend on the processing

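Against 428 genes, 1872 were called by DESeq2, 1164 by limma-voom with sample quality weights, 73 on the 8 compared libraries alone and 135 with the mature cell marker covariate. With each library left out the count ran from 121 (without Asxl1Tg 4) to 2330 (without Asxl1Tg 2), and leaving out WT 1, 2, 3 or 4 gave 951, 137, 152 or 147, Asxl1Tg 1 gave 168 and Asxl1Tg 3 gave 236. Against 56 genes in DM against Srsf2P95H, DESeq2 called 234 and limma-voom 103, leaving out 1 Srsf2P95H or DM library gave 20 to 48 and leaving out 1 WT or Asxl1Tg library, which enters through the shared spread, 38 to 63. Against 0 genes for the difference of the 2 effects, DESeq2 called 52, limma-voom 4 and the fit with no filter 1, and left-out libraries gave 0 to 7. A replicate block called 648, 62 and 0 genes in the 3 tests. The numbers did not pair the samples: correlations of same-numbered deviations ran from -0.516 to 0.022, and for 0 of 8 libraries was the best correlation that with its number. The fit of the second comparison on its own 8 libraries (46 genes) was chosen after seeing the data. Of 90 called named genes, 29 kept their call in all 19 alternatives, 61 lost it in 1 or more and none reversed. The cause of these changes was not tested. Over the alternatives the median log2 fold change of all genes stayed between -0.07 and -0.01.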

Other observations

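Some gene families outside the lists were looked at after their values were seen and carry no test of their own. The Gimap genes, GTPases of lymphocyte survival, were negative in 8 of 8 (median log2 fold change -1.20), and Gimap1 (40.8 to 24.6 CPM), Gimap5 (20.96 to 11.3 CPM) and Gimap8 (28.2 to 10.8 CPM) were called lower, where 0.76% of all genes were. Without WT 4 none was called and the median was -0.68. In DM against Srsf2P95H their median was -0.17. The Ifi200 genes, interferon-inducible DNA-binding proteins, were negative in 11 of 13 (median -0.66), with Ifi213 and Ifi208 called lower, at 1.48 to 0.0948 and 1.05 to 0.208 CPM. Without WT 4 none of the Ifi200 genes was called, and their median was -0.73. Their median in the second comparison was -0.74.

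Among the Galnt enzymes, which start O-glycosylation, Galnt12, Galnt3 and Galnt18 were called higher of 13 tested (1.12% of all genes were), while the abundant Galnt1 was level (209 CPM in WT, 214 CPM in Asxl1Tg), and 1 was called without WT 4. Of 9 laminin genes 1, Lama5, was called higher.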
